A study of Mus musculus with 16 samples.

Results

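The 10 core clock and clock output genes Arntl, Clock, Npas2, Per1, Per2, Per3, Cry1, Nr1d1, Nr1d2 and Dbp were followed in single mouse kidneys. They were chosen by symbol, for what they are known to do, though with earlier results of these data known. All 10 were found among the 18132 genes of the array. Kidney RNA was hybridized to Illumina MouseRef-8 v2 BeadChips, with 1 array per kidney and 16 arrays in all. Mice were wild type (WT) or lacked IL-33 (KO), an alarmin cytokine held in cell nuclei, and kidneys were taken 24 h after unilateral ureteral obstruction (UUO), a clip on the left ureter that injures the tubules, or from mice labelled control. Whether these genes differed between the genotypes, after obstruction or between the sets of mice bears on how comparable the kidneys were in the state of their clock.

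The Il33-deficient line had been backcrossed for 10 generations to the Taconic C57BL/6J BomTac background, and mice were 8 weeks old unless stated otherwise. The deletion was present in every cell, and the labels name no other allele. There were 2 WT control kidneys, 2 KO control kidneys, 7 WT kidneys after UUO and 5 KO kidneys after UUO. The labels divide the obstructed mice into a set 1, with 3 WT and 2 KO kidneys, and a set 2, with 4 WT and 3 KO kidneys, and give no set for the controls. The controls are described only as untreated, so isoflurane, buprenorphine and the incision, which the obstructed mice received, cannot be told apart from the obstruction itself. The hour at which kidneys were taken is not given in the sources used here for any group or set. A difference in hour between groups, if there was one, cannot be told apart from obstruction, genotype or set. Kidneys are named below by the array number in their label.

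The mammalian clock is a loop of transcription in which ARNTL (BMAL1), paired with CLOCK or NPAS2, binds E-box sequences and activates the Per and Cry genes, whose proteins then repress that pair. A second loop runs through Nr1d1 and Nr1d2, whose products repress Arntl and Npas2 at ROR elements, and DBP carries the rhythm on to genes with D-box sequences. In the kidney the clock is known for shaping daily rhythms of sodium and water handling, and the transcripts of Arntl and of Dbp peak in opposite phases.

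These elements, through which the arms of the loop are known to act, are shown where their exact letters lie near a start of a member. RefSeq promoter windows of GRCm38.p6, 250 bases before to 50 after a start, were matched to 9 of the 10 members in 13 windows, and 4 members held a motif on either strand. The other 5 held none, so the matches do not sort the members. The E-box CACGTG was present in 7.15% of 32851 promoters, the D-box TTATGTAA or TTACGTAA in 1.06% and the ROR element core TAGGTCA in 2.61%. Capitals mark the motif in each stretch.
Per1, E-box, chr11:69098743-69098828, plus strand: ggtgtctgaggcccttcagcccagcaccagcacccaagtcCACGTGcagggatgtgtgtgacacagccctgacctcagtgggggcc
Cry1, E-box, chr10:85185069-85185154, minus strand: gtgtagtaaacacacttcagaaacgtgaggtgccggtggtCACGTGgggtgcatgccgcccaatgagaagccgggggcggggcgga
Per3, D-boxes, chr4:151044796-151044890, minus strand: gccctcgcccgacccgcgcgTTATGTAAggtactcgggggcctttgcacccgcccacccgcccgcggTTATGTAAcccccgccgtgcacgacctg
Arntl, ROR element core, chr7:113207530-113207558, plus strand: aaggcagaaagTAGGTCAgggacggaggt
The first base of the motif lay 166 bases before the start used by the window in Per1 and 60 before it in Cry1. It lay 205 and 158 before it in Per3, and at position 31 after it in Arntl. In Per1 and Arntl this start lies within the gene, which begins at chr11:69095108 and chr7:113178471. A match is a description of these letters in this window and does not show that a factor binds there.

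Il33 served as a check of the labels. Its log2 intensity lay between 6.80 and 7.02 in the 7 KO kidneys and between 7.62 and 9.57 in the 9 WT kidneys. Havcr1, the tubular injury molecule KIM-1, lay between 7.07 and 7.37 in the controls and between 10.42 and 13.95 after UUO, with the lowest value in WT kidney 3820 and the next, 12.84, in WT kidney 3818. The 6 measured markers of proximal tubule, the main epithelium of the kidney, summed to an intensity between 19664 and 52340 on every array. In whole tissue, fewer cells of a type and less RNA per cell cannot be told apart. By the study's methods the values of UUO experiments are from single animals. The labels name no animal for any array, and if control kidneys shared one, p-values against the controls would measure only the spread between arrays.

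The members differed widely in brightness. Dbp was the brightest, with a mean log2 intensity of 10.22 over the 16 arrays, at the 93.2 percentile of all genes. Clock, Per2, Per1, Nr1d2 and Arntl lay between the 64.3 and the 78.1 percentile, while Npas2, Per3 and Nr1d1 lay near the 51st, at means of 7.07, 7.08 and 7.06 against 7.05 for the median gene. Cry1, at 6.79 and the 2.49 percentile, ranged over only 0.23 on the log2 scale across the 16 arrays. Values near that level are background rather than a true zero, so the fold changes of dim members may be compressed.

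**Figure D1:**
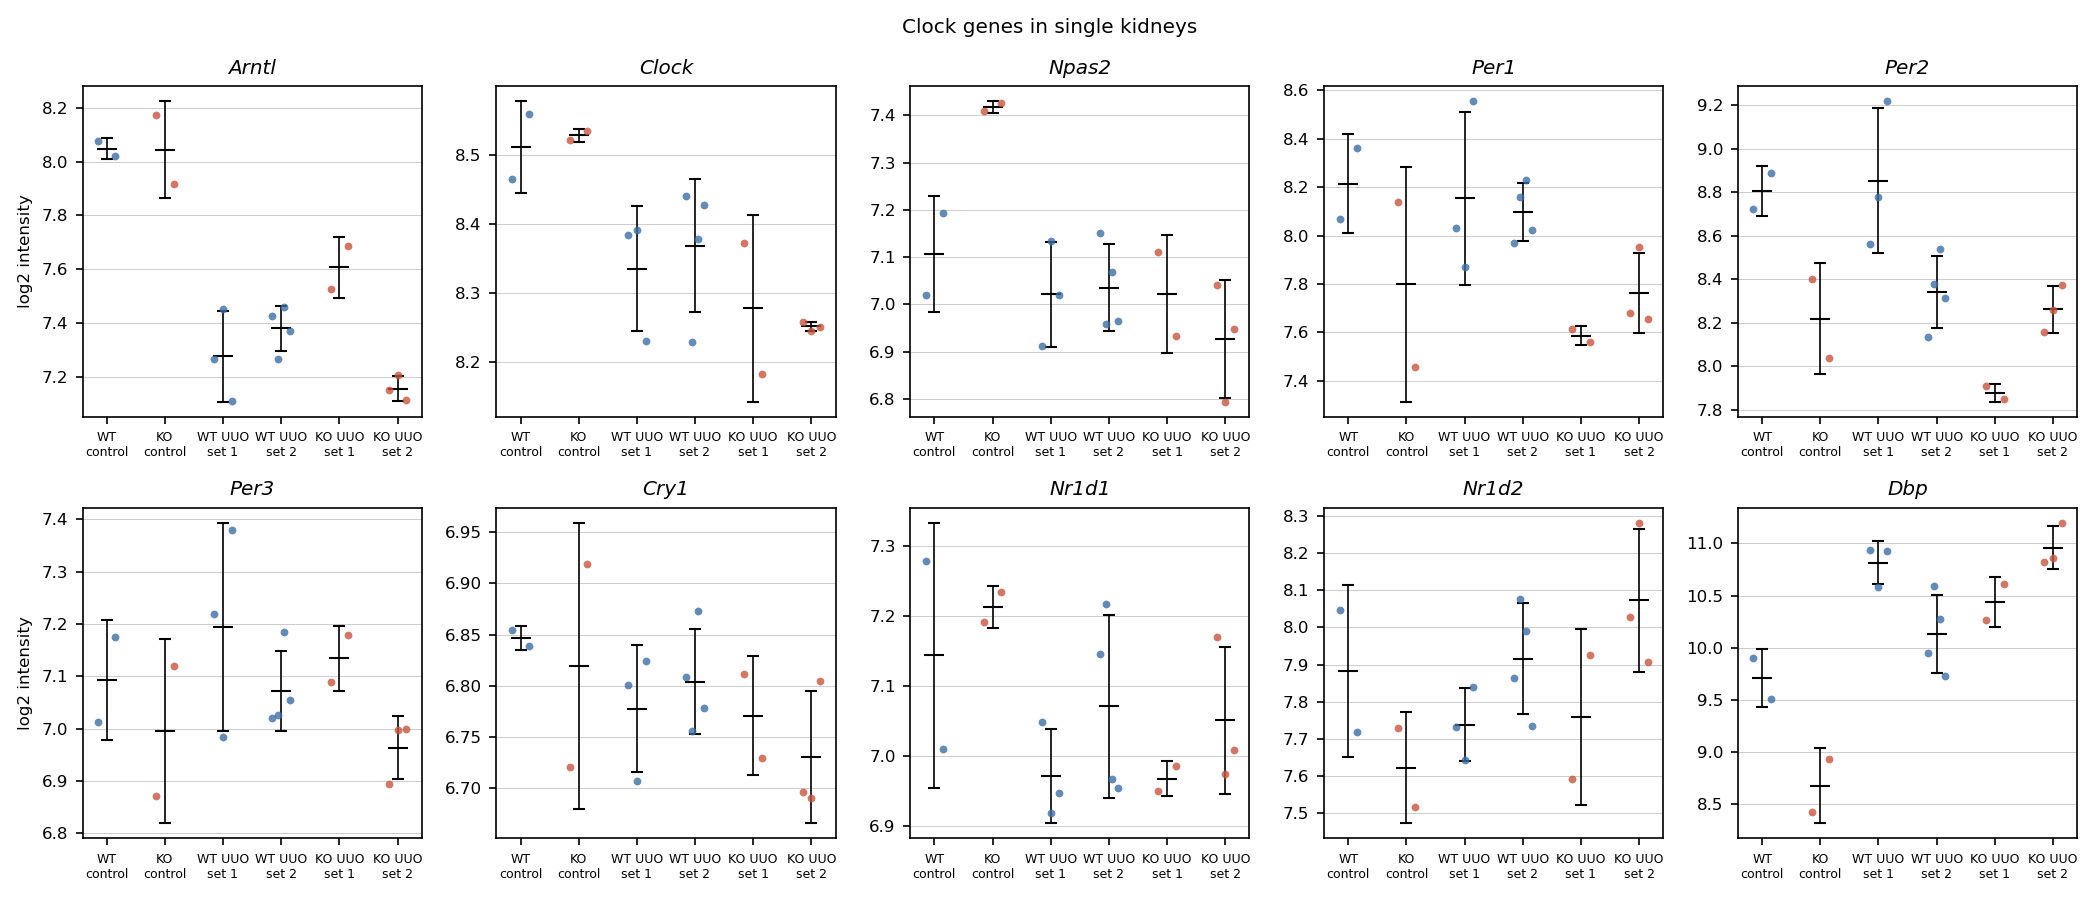
Log2 intensity of the 10 clock genes in each of 16 kidneys (points; blue WT, red KO), with the mean and standard deviation of each group in black. Each panel has its own scale and none starts at 0. Arntl lies between 7.92 and 8.17 in KO controls and 8.02 and 8.08 in WT controls, above every obstructed kidney, and Dbp is lowest in the KO controls.

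The first question was how the clock genes stood after obstruction in WT kidneys. Arntl, the activator on which the loop depends, was the 1 member of 10 that passed an adjusted p of 0.05, and it fell. Of all 18132 genes 15.2% passed, so the members' share was not above the background. The median log2 difference over the 10 members was -0.09, against -0.00 over all genes.

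Among the activators, Arntl had log2 intensities of 8.08 and 8.02 in WT controls and a lowest value of 7.11, a median of 7.37 and a highest of 7.46 in the 7 obstructed WT kidneys. All 7 lay below both controls. The log2 difference was -0.71 (SE 0.13, adjusted p = 0.00241, limma), a fall of 1.64-fold, and the exact two-sided permutation test gave p = 0.0278, the smallest that 7 against 2 kidneys allow. Clock, its partner, had 8.46 and 8.56 in controls and a lowest value of 8.23, a median of 8.38 and a highest of 8.44 after UUO. Those groups also did not overlap, as was the case for 21.4% of all genes, but the log2 difference of -0.16 had an adjusted p of 0.104 in limma. Npas2, the other partner, differed by -0.08 with overlapping groups (adjusted p = 0.628, limma).

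Dbp, the output factor, was higher in most obstructed WT kidneys without passing the test. WT controls had 9.90 and 9.51, set 1 had 10.94, 10.58 and 10.93, and set 2 had 9.95, 10.59, 10.27 and 9.73. Only kidney 3895 of set 2, at 9.73, lay within the range of the controls. The log2 difference was 0.72 (SE 0.30, adjusted p = 0.13, limma; exact permutation p = 0.0833, n = 7 and 2).

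The repressors of the loop, Per1, Per2, Per3 and Cry1, and the nuclear receptors Nr1d1 and Nr1d2 did not pass in WT kidneys, with log2 differences between -0.25 for Per2 and 0.03 for Per3. For Per2 the sets stood apart. Set 1 had 8.56, 8.78 and 9.22, against 8.73 and 8.89 in controls, whereas set 2 had 8.14, 8.38, 8.54 and 8.32, all below the controls. With only the obstructed kidneys of set 2, Per2 fell by 0.47 (adjusted p = 0.0115, limma) and 2 members passed, where 23.4% of all genes did.

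In KO kidneys 4 of the 10 members passed, against 21.8% of all genes. Dbp rose, and the activators Arntl, Clock and Npas2 fell. The median log2 difference over the 10 was -0.11, against -0.00 over all genes.

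Dbp had the largest difference of any member. KO controls had 8.43 and 8.94, the obstructed kidneys of set 1 had 10.27 and 10.61, and those of set 2 had 10.82, 10.86 and 11.20. Every obstructed kidney lay above both controls by more than 1 on the log2 scale. The log2 difference was 2.07 (SE 0.31, adjusted p = 0.000237, limma), a rise of 4.20-fold. The exact permutation p was 0.0476, the smallest possible for 5 against 2 kidneys.

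Arntl had 8.17 and 7.92 in KO controls, 7.53 and 7.69 in set 1 and 7.15, 7.21 and 7.11 in set 2. The obstructed kidneys were all lower, those of set 2 by more. The log2 difference was -0.71 (SE 0.14, adjusted p = 0.00177, limma), the same to 2 decimals as in WT kidneys. With the obstructed kidneys of set 1 alone the difference was -0.44 and did not pass (adjusted p = 0.0657, limma), nor did it without KO control 3813 (-0.58, adjusted p = 0.0522, limma). In set 1 alone Npas2 and Dbp were the 2 members that passed, against 12.5% of all genes.

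Npas2 had 7.41 and 7.43 in KO controls and between 6.79 and 7.11 in the 5 obstructed kidneys. The groups did not overlap, and the log2 difference was -0.45 (SE 0.08, adjusted p = 0.000904, limma). Clock had 8.52 and 8.53 in controls and between 8.18 and 8.37 after UUO, a log2 difference of -0.27 (SE 0.06, adjusted p = 0.00643, limma). It did not pass with set 1 alone (adjusted p = 0.103, limma), without control 3813 (0.0535) or without control 3814 (0.0604). Arntl, Clock, Npas2, Nr1d1 and Dbp, 5 of 10, had groups that did not overlap, where 35.0% of all genes did.

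Of the nuclear receptors, Nr1d1 had 7.19 and 7.23 in KO controls and between 6.95 and 7.17 after UUO, a log2 difference of -0.19 that did not pass (adjusted p = 0.142, limma). Nr1d2 had 7.73 and 7.52 in controls, 7.59 and 7.93 after UUO in set 1 and 8.03, 8.28 and 7.91 after UUO in set 2. The log2 difference was 0.32 (adjusted p = 0.16, limma). It rose by 0.45 with set 2 alone (adjusted p = 0.0259, limma), where 5 members and 24.6% of all genes passed. Without KO kidney 3821 it also rose, by 0.41 (adjusted p = 0.0397, limma). Per1, Per2, Per3 and Cry1 differed by -0.11 to 0.04 and did not pass.

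**Figure D2:**
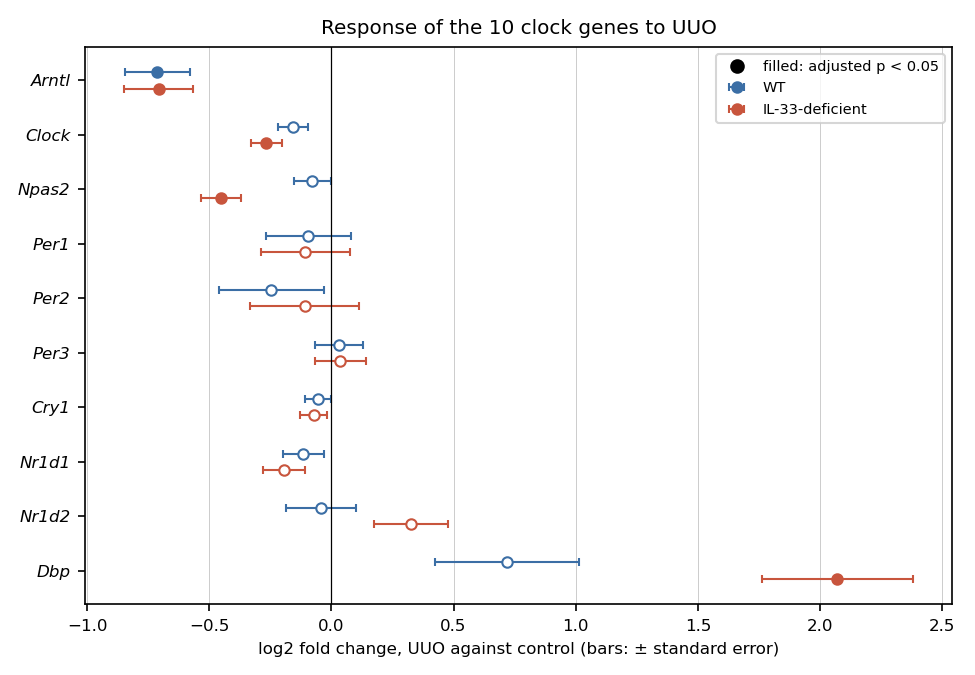
Log2 fold change of the 10 clock genes, UUO against control (points; blue WT, 7 against 2 kidneys; red KO, 5 against 2 kidneys), with standard errors from limma. Filled points passed an adjusted p of 0.05. Arntl lies at -0.71 in both genotypes, and Dbp at 0.72 in WT and 2.07 in KO kidneys.

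Of 16 other measured clock genes, 5 passed in WT kidneys, where 15.2% of all genes did, and 6 in KO kidneys, where 21.8% did. Bhlhe40 (DEC1), a repressor of E-box transcription, rose by 1.04 in WT (SE 0.29, adjusted p = 0.0241, limma) and by 1.17 in KO kidneys (SE 0.30, adjusted p = 0.0108, limma). Csnk1d and Csnk1e, the casein kinases that phosphorylate PER proteins, rose by 0.31 and 0.43 in WT and by 0.36 and 0.63 in KO kidneys. Usp2, a deubiquitinase with a strong daily rhythm, fell by 1.33 in WT and by 1.35 in KO kidneys (adjusted p = 0.00889 and 0.00628, limma).

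Tef, which belongs with Dbp to the PAR bZIP factors that bind D-boxes, fell by 0.82 in WT kidneys (SE 0.24, adjusted p = 0.0333, limma), and in KO kidneys its log2 difference was -0.37 and did not pass (adjusted p = 0.38, limma). In KO kidneys Timeless also rose, by 0.34, and Btrc, a ubiquitin ligase subunit that targets PER proteins, fell by 0.20. The other 11 genes in WT and the other 10 in KO kidneys did not pass.

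The set of the obstructed kidneys bore on these calls. With the UUO kidneys of set 1 alone none of the 5 passed in WT kidneys, where 1.04% of all genes did. Usp2 had a log2 difference of -0.87 there (adjusted p = 0.22, limma) and of -1.67 with set 2 alone (adjusted p = 1.72e-06, limma), and Tef had -0.49 (adjusted p = 0.376, limma) and -1.06 (adjusted p = 4.82e-05, limma). In KO kidneys Usp2 and Csnk1e passed with set 1 alone, and Bhlhe40, Csnk1d, Timeless and Btrc did not. With set 2 alone all of them passed in the genotype in which they passed over both sets.

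**Figure D3:**
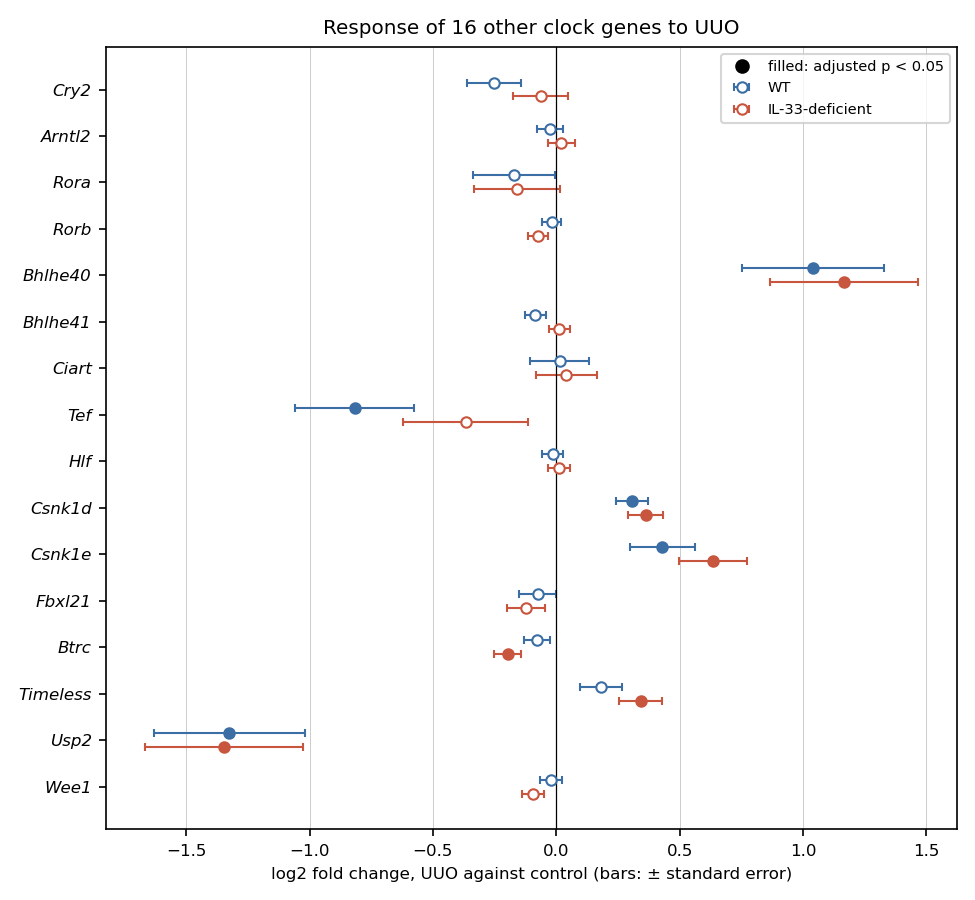
Log2 fold change of 16 other clock genes, UUO against control (blue WT, red KO), with standard errors from limma. Filled points passed an adjusted p of 0.05. Bhlhe40, Csnk1d and Csnk1e lie to the right and Usp2 to the left in both genotypes, at -1.33 and -1.35 for Usp2.

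Of 5 measured kidney transcripts known to follow the clock, 3 passed in each genotype, against the same 15.2% and 21.8% of all genes. Edn1, which encodes endothelin and restrains sodium uptake in the collecting duct, rose by 1.43 in WT and by 1.62 in KO kidneys. Scnn1a, the alpha subunit of the epithelial sodium channel, fell by 1.10 and by 1.31, and Aqp2, the collecting duct water channel, fell by 1.08 and by 1.42. Sgk1 and Avpr2 did not pass. With the UUO kidneys of set 1 alone none of the 3 passed in WT kidneys (adjusted p = 0.076 for Edn1, 0.454 for Scnn1a and 0.368 for Aqp2, limma), and Edn1 alone passed in KO kidneys (adjusted p = 0.0142, limma). Of the markers of the distal nephron and collecting duct 4 of 6 fell in WT and 3 of 6 in KO kidneys. Aqp2 is itself on this list and among those that fell in both genotypes, so the lists are not independent. The summed intensity of the 6, Aqp2 included, lay between 17651 and 23091 in the 4 controls. It lay between 8377 and 20173 in the 12 obstructed kidneys. The part of this change in the values of Scnn1a and Aqp2 was not tested. Markers of proximal tubule also fell in KO kidneys, 4 of 6, and none of 6 passed in WT kidneys. Markers of other cells rose with the clock gene differences, 4 of 6 for fibroblasts and 2 of 9 for leukocytes in WT kidneys, and 5 of 6 and 4 of 9 in KO kidneys. Their part in the members' values was not tested.

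The genotypes were next compared in their response to UUO. No gene of 18132 passed an adjusted p of 0.05 (0.00%, limma), and 860 genes, 4.74%, had an unadjusted p below 0.05, among them Npas2 and Dbp. The rise of Dbp was larger in KO than in WT kidneys by 1.35 on the log2 scale (SE 0.43, rank 102 of all genes, adjusted p = 0.973, limma; exact permutation p = 0.161). The change of Npas2 was lower in KO kidneys by a log2 difference of -0.38 (SE 0.11, rank 68, adjusted p = 0.973, limma; exact permutation p = 0.0701). For Arntl the responses differed by 0.00 (SE 0.19).

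Both differences lay largely in the control kidneys. Dbp was 8.43 and 8.94 in KO controls against 9.90 and 9.51 in WT controls, a log2 difference of -1.03 (SE 0.37). Npas2 was 7.41 and 7.43 in KO against 7.02 and 7.19 in WT controls, a difference of 0.31 (SE 0.10). Per2 was 8.40 and 8.04 in KO against 8.73 and 8.89 in WT controls, a difference of -0.59 (SE 0.27).

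In these 3 of 10 members the controls of the genotypes did not overlap, as in 34.0% of all genes. No gene passed between the controls (0.00%, adjusted p = 1 for each member, limma). An unadjusted p below 0.05 was reached by the same 3 members, Dbp, Npas2 and Per2, and by 664 genes, 3.66%. With 2 kidneys against 2 the exact permutation test cannot go below 0.333. The remaining 7 members differed between the controls by log2 values from -0.42 for Per1 to 0.07 for Nr1d1, with overlapping groups.

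After UUO, KO kidneys were compared with WT kidneys at the threshold of the study's methods, an unadjusted p below 0.05, an adjusted p below 0.25 and a fold change above 1.3. None of the 10 members passed, and 2 of 18132 genes did (0.0110%). The study applied this threshold to probes and to fewer WT kidneys, so these counts are not those of its own contrast. No member had groups without overlap, against 0.756% of all genes. Per1 and Per2, the period genes, were the members with an unadjusted p below 0.05, as were 10.3% of all genes, and both were lower in KO kidneys.

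Per1, which responds quickly to glucocorticoids and light as well as to the clock, had values of 8.03, 7.87 and 8.56 in WT set 1 and of 7.97, 8.16, 8.23 and 8.02 in WT set 2. KO kidneys had 7.62 and 7.56 in set 1 and 7.68, 7.95 and 7.65 in set 2. Only KO kidney 3898, at 7.95, reached into the range of the WT kidneys. The log2 difference was -0.43 (SE 0.11, adjusted p = 0.311, rank 75 of all genes, limma), and the exact permutation p was 0.00379 before any correction for 10 members. Within the sets it was -0.57 and -0.33, the KO kidneys of each set lying below all its WT kidneys. Groups were without overlap in 3 of 10 members in set 1 and 4 in set 2, and the share over all genes is not given here. Between the controls the log2 difference of Per1 was -0.42, with overlapping groups, and its responses to UUO differed by -0.01.

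For Per1 the adjusted p fell below 0.25, and the gene passed, without WT kidney 3819 (-0.47, adjusted p = 0.115, limma), with only the genes brighter than the median gene (adjusted p = 0.22) and with the 4 groups in a single model (adjusted p = 0.228). With Havcr1 as a covariate the difference was -0.30 (adjusted p = 0.36, limma), and without the weakly injured kidney 3820 it was -0.36 (adjusted p = 0.23, fold change below 1.3).

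Per2 had a log2 difference of -0.45 (SE 0.16, adjusted p = 0.38, limma; exact permutation p = 0.029, n = 5 and 7), but the difference lay in set 1. There it was -0.97, with KO kidneys at 7.91 and 7.85 and WT kidneys from 8.56 to 9.22, and in set 2 it was -0.08 with overlapping groups. The other 8 members differed by -0.09 to 0.32 (adjusted p from 0.532 to 0.999, limma). For Arntl the difference was 0.00 (SE 0.10).

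Of 8 genes known to be induced by glucocorticoids, which reach the kidney with a daily rhythm and with stress, none passed. An unadjusted p below 0.05 was reached by 6 of the 8, all lower in KO kidneys, and by 10.3% of all genes in either direction. The smallest p-values belonged to Errfi1, a feedback inhibitor of the EGF receptor (-0.67, SE 0.15, adjusted p = 0.304, limma), and to the kinase Sgk1 (-0.66, SE 0.18, adjusted p = 0.311, limma). The summed intensity of the 8 genes lay between 11136 and 13109 in the 5 KO kidneys and between 14568 and 24261 in the 7 WT kidneys. These ranges did not overlap, though none of the 8 genes was without overlap by itself. Bright genes such as Errfi1 weigh most in a sum of linear intensities. How often the sums of other lists separate the genotypes was not tested. In the controls the sum also lay lower in KO kidneys, between 15618.5 and 16285.7 against 18090.1 to 18232.9 in WT. After UUO the summed proximal tubule markers also lay lower, between 19664 and 33202 in KO and between 26455 and 49809 in WT kidneys, with overlap and none of 6 passing. Fibroblast markers lay the other way. All 6 had a positive sign, 5 with an unadjusted p below 0.05, and Acta2, the smooth muscle actin of myofibroblasts, passed (0.67, SE 0.11, adjusted p = 0.233, limma). Their summed intensity lay between 4891 and 5783 in KO and between 2811 and 4497 in WT kidneys, again without overlap. The part of these lists in the values of Per1 was not tested. Of 16 other clock genes none passed, and Timeless had the smallest p (0.14, adjusted p = 0.472, limma).

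The sets of mice were then compared after UUO, within genotype. No gene passed an adjusted p of 0.05 (0.00%, limma), and 1833 genes, 10.1%, had an unadjusted p below 0.05, among them Nr1d2 and Per3. Nr1d2 was higher in set 2 by 0.23 (SE 0.08, adjusted p = 0.355, limma; exact permutation p = 0.0371), and Per3 differed by -0.14 (SE 0.06, adjusted p = 0.45, limma; exact permutation p = 0.0629). Arntl, Dbp and Per2 had set differences of -0.12 (SE 0.10), -0.19 (SE 0.22) and -0.14 (SE 0.16). No member separated the sets without overlap, against 0.689% of all genes.

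In the fits within genotype the set differences of these 3 genes had opposite signs. In WT kidneys set 2 differed from set 1 by 0.10 in Arntl, -0.51 in Per2 and -0.68 in Dbp. In KO kidneys the differences were -0.45 in Arntl, 0.38 in Per2 and 0.52 in Dbp. In KO kidneys set 1 and set 2 did not overlap for any of the 3 genes, and 5 of 10 members were separated in this way against 25.0% of all genes. In WT kidneys they did not overlap for Per2, the 1 member of 10 of which this held, against 9.08% of all genes.

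The difference between these differences was tested as the interaction of genotype and set, with set labels exchanged within each genotype for the permutations, whose hypothesis is that set has no effect in either genotype. It was -0.55 for Arntl (SE 0.12, rank 14 of all genes, exact permutation p = 0.02), 0.90 for Per2 (SE 0.21, rank 29, exact permutation p = 0.00286, the smallest possible) and 1.20 for Dbp (SE 0.30, rank 34, exact permutation p = 0.0114). None passed over all genes (adjusted p = 0.716 for each, limma), nor did any other gene (0.00%). An unadjusted p below 0.05 was reached by 3 of 10 members and by 1226 genes, 6.76%.

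Without WT kidney 3819 the interaction passed for Arntl (-0.64, adjusted p = 0.0116, limma) and Dbp (1.32, adjusted p = 0.0388), for Per2 it was 0.93 (adjusted p = 0.0506), and 3.67% of all genes passed. The directions did not depend on kidney 3820, without which the values were -0.47 for Arntl, 0.71 for Per2 and 1.15 for Dbp, with adjusted p of 0.9, 0.873 and 0.9 in limma. With Havcr1 as a covariate they were -0.44, 0.71 and 1.06.

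The genotypes were also compared within each set. In set 2, Dbp was 10.82, 10.86 and 11.20 in KO and between 9.73 and 10.59 in WT kidneys, a log2 difference of 0.83 (SE 0.18, adjusted p = 0.175, limma; exact permutation p = 0.0571) that passed the threshold of the methods, as did 0.447% of all genes. In set 1 it was -0.38 with overlapping groups (adjusted p = 0.736, limma). Arntl was higher in KO kidneys of set 1 by 0.33 and differed by -0.22 in set 2, without passing (adjusted p = 0.736 and 0.194, limma). Its groups did not overlap in either set (exact permutation p = 0.2 in set 1 and 0.0571 in set 2). How many of all genes were separated so is not given here.

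**Figure D4:**
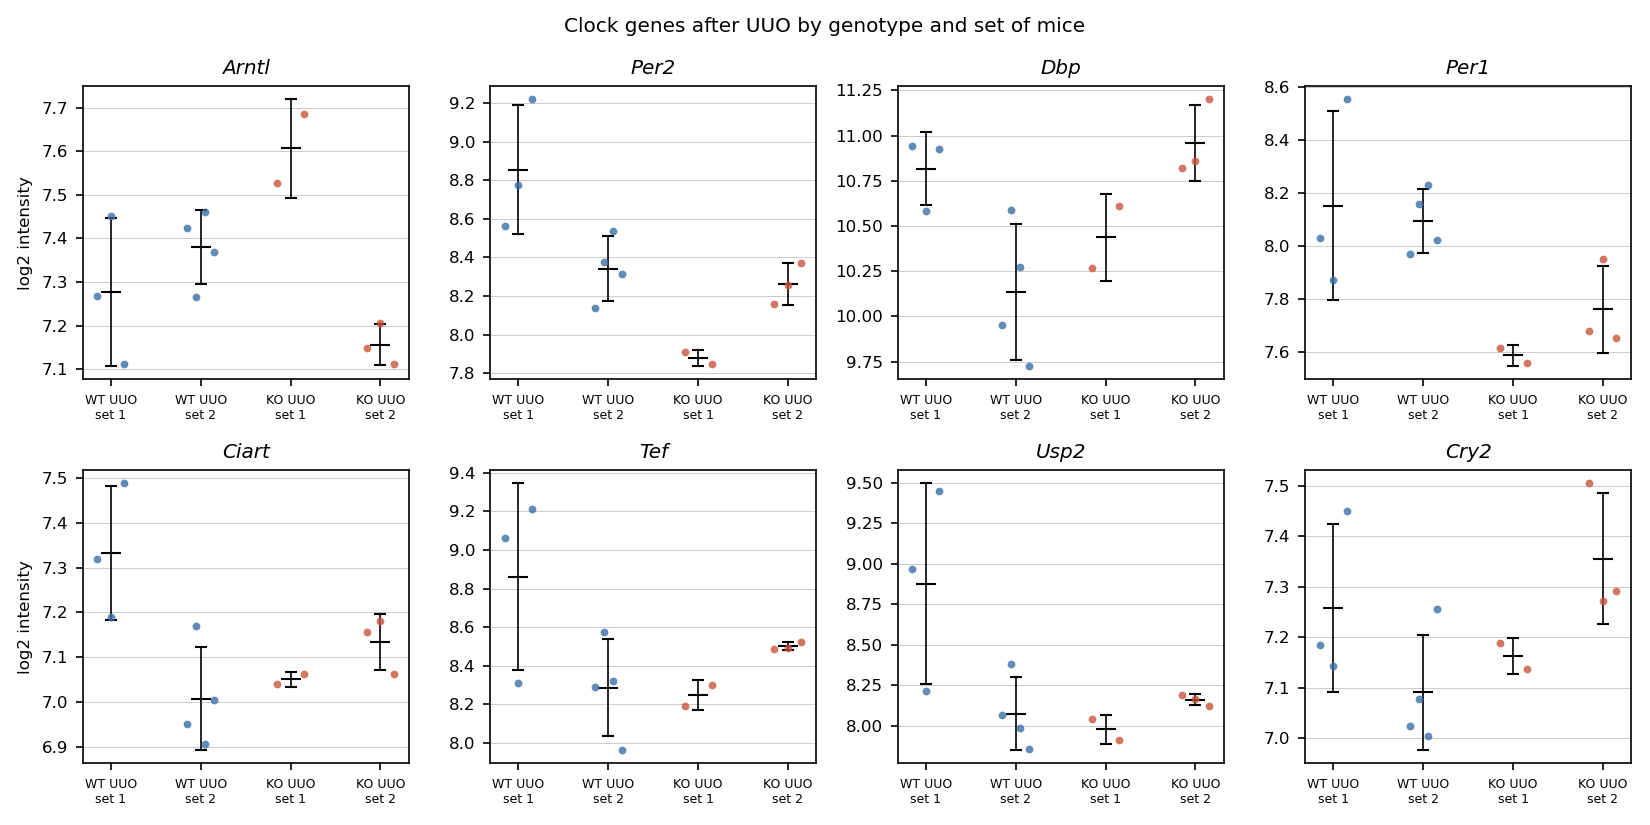
Log2 intensity of 8 clock genes in the 12 obstructed kidneys by genotype and set (points; blue WT, red KO), with the mean and standard deviation of each group in black and a separate scale, not starting at 0, in each panel. From set 1 to set 2 Per2 and Dbp are lower in WT and higher in KO kidneys, and Arntl is lower in KO kidneys.

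Of the 16 other clock genes 4 had an unadjusted p below 0.05 in the same interaction. By size of p they were Ciart, an E-box target that represses CLOCK and ARNTL (0.41, rank 122, exact permutation p = 0.00571), Usp2 (0.98, exact permutation p = 0.00857), Tef (0.83, exact permutation p = 0.00857) and Cry2 (0.36, exact permutation p = 0.0229). Each had an adjusted p of 0.716 in limma. Tef and Cry2 were named after their values were seen. In each of the 4, set 2 was lower in WT and higher in KO kidneys, as for Per2 and Dbp.

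In WT kidneys Usp2 was 8.97, 8.22 and 9.45 in set 1 and between 7.86 and 8.39 in set 2, and Tef was 9.06, 8.31 and 9.21 in set 1 and between 7.96 and 8.57 in set 2. Kidney 3819 lay with set 2 in both genes, and kidneys 3818 and 3820, with the lowest Havcr1 of the obstructed kidneys, were the highest. In KO kidneys Usp2 was 8.04 and 7.91 in set 1 and between 8.12 and 8.19 in set 2, where Havcr1 was between 13.61 and 13.87 in all 5.

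Tubular injury markers moved with this interaction. All 5 had a negative sign, with a median of -1.05, and none passed. Their summed intensity was 19943 to 43401 in WT set 1, 32170 to 41062 in WT set 2, 42941 to 43796 in KO set 1 and 34854 to 41006 in KO set 2. Of 6 measured temperature-responsive genes 4 had a positive and 2 a negative sign, and none passed. An unadjusted p below 0.05 was reached by 1 of them and by 6.76% of all genes. Among them Hspa1a was at 11.39 in kidney 3819 and between 7.86 and 9.45 in the other 11 obstructed kidneys. Beyond the values with Havcr1 as a covariate given above, their part in the result was not tested.

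Arntl was set against each of the other 9 members over the 12 obstructed kidneys, since it stands on the opposite arm from its repressors and from Dbp. With Dbp Pearson's r was -0.573 (permutation p = 0.0522, adjusted over 9 relations 0.419) and Spearman's rho was -0.643 (permutation p = 0.0281). Without the 2 kidneys farthest from the median of Arntl r was -0.76. Within the 7 kidneys of set 2 it was -0.867 (exact permutation p = 0.0198, adjusted 0.0982). The genotypes did not overlap there in either gene, so the difference between them enters r. Its part in r was not tested. Within the 7 WT kidneys r was -0.633 (exact permutation p = 0.118). Over the 12 kidneys the repressors Per1, Per2, Per3 and Cry1 had r of -0.364, -0.505, 0.0857 and 0.0542. Within set 2 their r was positive, at 0.786 (exact permutation p = 0.0365), 0.25, 0.763 (exact permutation p = 0.0218) and 0.65. In Per1 and Per3 the genotypes did not overlap there either. None of the 9 relations passed after adjustment.

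As a description, genes outside the members were ranked by how closely they followed Dbp or Arntl over the 12 obstructed kidneys. Those most like Dbp were Sfxn4, 6430517E21Rik, Ctso, Kcnh2 and Chrnd, with r from 0.830 to 0.870. Those most like Arntl were Irak3, Gtf2e1, 2610020H08Rik, Acsbg1 and Capza2, with r from 0.862 to 0.901. The members were left out of this ranking and could not appear, and none of the 16 other clock genes was among the 10. Ctso, Kcnh2, Chrnd, 6430517E21Rik, 2610020H08Rik and Capza2 stayed in all 12 kidneys below 7.05, the mean log2 intensity of the median gene.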

How the data were processed

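Kidney RNA was labelled with biotin and hybridized to Illumina MouseRef-8 v2 BeadChips. The authors imported the arrays with beadarray (BeadStudio 2 is named in the submitters' processing notes) and deposited linear intensities, 1 per gene, for 16 arrays and 18132 genes. How background was corrected, arrays were normalized and probes were joined is not given in the sources used here. Array medians lay between 132.3 and 133.4, so the deposited intensities had already been made alike. No detection p-values were used. Precision is limited by how few arrays there were.

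The intensities were quantile-normalized, taken to log2 and tested with lmFit and eBayes of limma 3.58.1 (R 4.3.3), and p-values were adjusted over all genes by Benjamini-Hochberg. Responses to UUO, their difference and the controls came from 4 group means over 16 arrays. KO against WT after UUO, the sets (with genotype as a term) and the interaction of genotype and set used the 12 UUO arrays. Exact two-sided permutation tests exchanged array labels. For the sets and for both interactions they did so within each genotype, so the hypothesis tested there is that set or treatment has no effect in either genotype. Correlations and motif searches used Python 3.11.15 with scipy 1.17.1. The tests were checked on simulated arrays.

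Groups and sets came from the sample labels. The 10 members and the gene lists were chosen with earlier results of these data known, and the lists support nothing by themselves. The genes named were the 10 members, listed genes past the threshold or, in lists with none, the 2 with the smallest p, and the 5 genes most like Dbp and Arntl. The symbols Bhlhb2, Bhlhb3 and Gm129 of the table were read as Bhlhe40, Bhlhe41 and Ciart. Of 18 other clock genes listed, 16 were found, as were 5 of 6 kidney outputs, 8 of 9 glucocorticoid-induced and 6 of 8 temperature-responsive genes. Another listed clock gene is not reported here. Alternatives were no further normalization, centring on the median, array weights, an intensity trend in the prior variance, genes above the median brightness alone, other samples in the fit, the set as a block, each set or genotype alone, Havcr1 as a covariate and each array left out.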

Additional observations from a re-analysis of the deposited data

Results flagged for a closer look

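Nr1d1 in KO kidney 3897 after UUO was far from the others of its group, at a log2 intensity of 7.17 against 6.95 to 7.01 in the other 4. It was 1 of 30 groups searched, where chance flags about 1 in 20.

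The genotypes differed in their response to UUO in 2 members at an unadjusted p below 0.05, by -0.38 for Npas2 (exact permutation p = 0.0701) and 1.35 for Dbp (exact permutation p = 0.161). Neither passed over all genes (adjusted p = 0.973, limma).

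The difference between set 2 and set 1 differed between the genotypes at an unadjusted p below 0.05 in 3 members, by -0.55 for Arntl (exact permutation p = 0.02), 0.90 for Per2 (exact permutation p = 0.00286) and 1.20 for Dbp (exact permutation p = 0.0114). None passed over all genes (adjusted p = 0.716, limma).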

How the results depend on the processing

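The 21 member differences with an unadjusted p below 0.05, over 7 comparisons, kept their direction under every alternative run. Of the other 49, 37 turned under at least 1 alternative, in 110 of 1065 values, none of which passed. Among those that turned with a set or genotype alone were Dbp between KO and WT kidneys after UUO (0.32, and -0.38 in set 1), Per2 after UUO in WT kidneys (-0.25, and 0.05 with set 1) and in KO kidneys (-0.11, and 0.04 with set 2), and the set differences of Arntl (-0.12, and 0.10 in WT kidneys), Per2 (-0.14, and 0.38 in KO kidneys) and Dbp (-0.19, and 0.52 in KO kidneys). In WT kidneys 1 member passed after UUO in 23 of 24 alternatives, and with the UUO kidneys of set 2 only 2 passed, Arntl and Per2. Leaving out each array gave 1 in every case. In KO kidneys 4 members passed, 2 with the UUO kidneys of set 1 only (Npas2 and Dbp), and from 2, without KO control 3813, to 5, without KO kidney 3821, when an array was left out. Between KO and WT kidneys after UUO no member passed, but 2 did with the brighter genes only (Per1 and Per2), 1 with set 2 only (Dbp) and 1 with the 4 groups in a single model (Per1). Leaving out an array gave 0 to 1, the 1 being Per1 without WT kidney 3819. The interaction of genotype and set gave 0 to 2, the 2 being Arntl and Dbp without WT kidney 3819. The count stayed at 0 for the difference of the responses, for the controls, for the sets and for the correlations. The causes of these changes were not tested.

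Over all genes, 2754 passed in WT kidneys after UUO, 188 with set 1 only, 4241 with set 2 only, 1778 with arrays of that genotype only, 1051 without control 3811 and 809 without control 3812. In KO kidneys 3955 passed, 2258 with set 1 only, 2276 without control 3813 and 2575 without control 3814. Between KO and WT kidneys after UUO 2 passed, 80 with array weights, 168 with the brighter genes, 81 with set 2 only, 127 with 4 groups in a single model, 309 without WT kidney 3819, 94 without KO kidney 3899, 31 without WT kidney 3820, 1 with the set as a block and 0 with set 1 only. Between the sets 0 passed, 23 with Havcr1 as a covariate and 112 without KO kidney 3822.

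No paired analysis was possible because the array numbers are all different and the groups share none. With 2 controls per genotype a lone control left in a fit is assumed to vary like the other groups. Cry1, Npas2, Per3 and Nr1d1 lay near or below the median gene, and no detection limit was measured for them.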
